A study of Homo sapiens with 12 samples.

Results

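The genes described here are 32 members of glycolysis and of the hypoxia response, found by gene symbol in a table of 30017 symbols. They cover the glucose carriers and hexokinases, the enzymes that take glucose phosphate to pyruvate, the lactate dehydrogenases and pyruvate dehydrogenase kinases that set where pyruvate goes, and genes that sense or answer low oxygen. PolyA RNA was sequenced in 12 libraries of THP-1, an established human monocytic leukaemia line that the labels also describe as AML blasts, in 4 groups of 3. The groups were IRAK4 knockout cells given 50 nM CC-885, IRAK4 knockout cells given DMSO, wild-type cells given 50 nM CC-885 and wild-type cells given DMSO, each for 12 h. All cells had been electroporated with Cas9, the knockout with an sgRNA to IRAK4 and the wild type without one, and both genotypes were grown up from single cells. The labels do not give the number of clones behind a genotype, so loss of IRAK4 and differences between clones cannot be told apart. They also do not say that replicates were separate cultures, and p-values measure only the spread between these libraries. IRAK4 is the kinase that relays signals of Toll-like receptors and of the interleukin-1 receptor. CC-885 is a cereblon ligand that sends the translation termination factor GSPT1 to degradation.

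Glycolysis splits glucose into pyruvate in the cytosol, with a gain of ATP, and lactate dehydrogenase turns pyruvate into lactate to restore the NAD+ that the pathway needs. When oxygen is scarce, the prolyl hydroxylases of the EGLN family no longer mark the transcription factor subunit HIF1A for destruction, and HIF1A then binds short DNA elements near many glycolytic genes and near genes for new vessels, mitophagy and collagen folding. HIF1A is controlled mostly at the level of its protein, which was not analysed here, and activated monocytes and macrophages use the same factor to raise glycolysis.

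Libraries held between 46903984 and 56675539 counts. Under CC-885 IRAK4 averaged 30.7 ± 1.05 CPM in knockout against 72.8 ± 9.53 CPM in wild type, and under DMSO 8.26 ± 0.847 CPM against 52.2 ± 1.57 CPM (SD, n = 3 each). The 11 markers of monocytic cells were detected in each group, with sums of 1796 to 4195 CPM. Under CC-885 2 of the 11 rose and 9 fell in knockout (38.9% and 40.0% of all genes), and 2 rose and 8 fell in wild type (35.7% and 36.6%). PTPRC, which rose in both, averaged 666 ± 31.7 CPM under CC-885 against 295 ± 21.7 CPM under DMSO in knockout, and 672 ± 23.2 against 265 ± 11.5 CPM in wild type. CSF1R went the other way, at 49.3 ± 1.67 against 234 ± 4.04 CPM in knockout and 72.1 ± 4.88 against 128 ± 4.37 CPM in wild type. Between genotypes under DMSO, 5 of the 11 were higher in knockout and 1 lower, beside 21.3% and 28.4% of all genes. The sum of the 11, in which LYZ weighs most under DMSO, was lower under CC-885, at 1796 to 1867 CPM against 3265 to 4195 CPM in knockout, and 2242 to 2303 CPM against 2852 to 2931 CPM in wild type. Summed markers of T and NK, B and erythroid cells were at most 22.0, 8.72 and 13.5 CPM, with CD3E, CD3G and MS4A1 at 0 counts in each group. Epithelial, stromal and endothelial markers summed to 93.1 to 463 CPM, of which PECAM1, an adhesion molecule of monocytes too, gave 96.0 ± 3.65 CPM in knockout under CC-885 against 417 ± 25.2 CPM under DMSO, while COL1A2, COL3A1, DCN and CDH5 were at 0 in each group. The part of these shifts in the results below was not tested. Replicate 3 of wild type under CC-885 stood apart from the other replicates of its group, its chi-square over genes, per degree of freedom, being 81.7 and 66.7 against them, beside 5.33 between the other replicates and 4.30 to 22.4 within the other groups. Results that move without it are given with that value. Its name begins with 52 and those of the others in its group with 51, prefixes to which the labels give no meaning. Fits within prefix 51 therefore leave it out too. Replicate 1 of wild type under DMSO, the only one there with 51, gave 15.6 and 16.3, beside 6.49. Replicate 3 of knockout under DMSO, the only one there with 52, gave 22.4 and 14.9, beside 13.7.

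Under CC-885, most glycolytic transcripts were lower and a set of oxygen-sensing and hypoxia-response transcripts was higher, in both genotypes. In knockout cells 9 members rose, 19 fell and 4 did not pass the test (edgeR quasi-likelihood test, Benjamini-Hochberg adjusted p under 0.05 over 16010 genes). Over all genes tested 78.9% were called in that comparison, 38.9% higher and 40.0% lower, so the members' share of rises lay below the background and their share of falls above it. In wild-type cells 11 members rose, 18 fell and 3 did not pass, against 72.3% of all genes called, 35.7% higher and 36.6% lower. The median change of the members was -0.45 in knockout and -0.40 in wild type on the log2 scale, beside -0.03 over all genes in each. All 32 members passed the filter on low counts, ADM through its CC-885 libraries alone and EGLN3 only with its CC-885 libraries counted. A rise of these genes was thus favoured beforehand. Both responses use their own DMSO controls, and 8 members rose in both, 18 fell in both and 0 moved in opposite directions. The same counts over all genes were not made, so this sharing cannot be called particular to the members.

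Within the 20 members that carry, phosphorylate and split glucose or make lactate, 2 rose and 16 fell in each genotype. Their median change was -0.63 in knockout and -0.60 in wild type. Within the other 12, the pyruvate dehydrogenase kinases and the hypoxia genes, 7 rose and 3 fell in knockout and 9 rose and 2 fell in wild type. Their median was 0.86 in knockout and 0.71 in wild type.

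**Figure D1:**
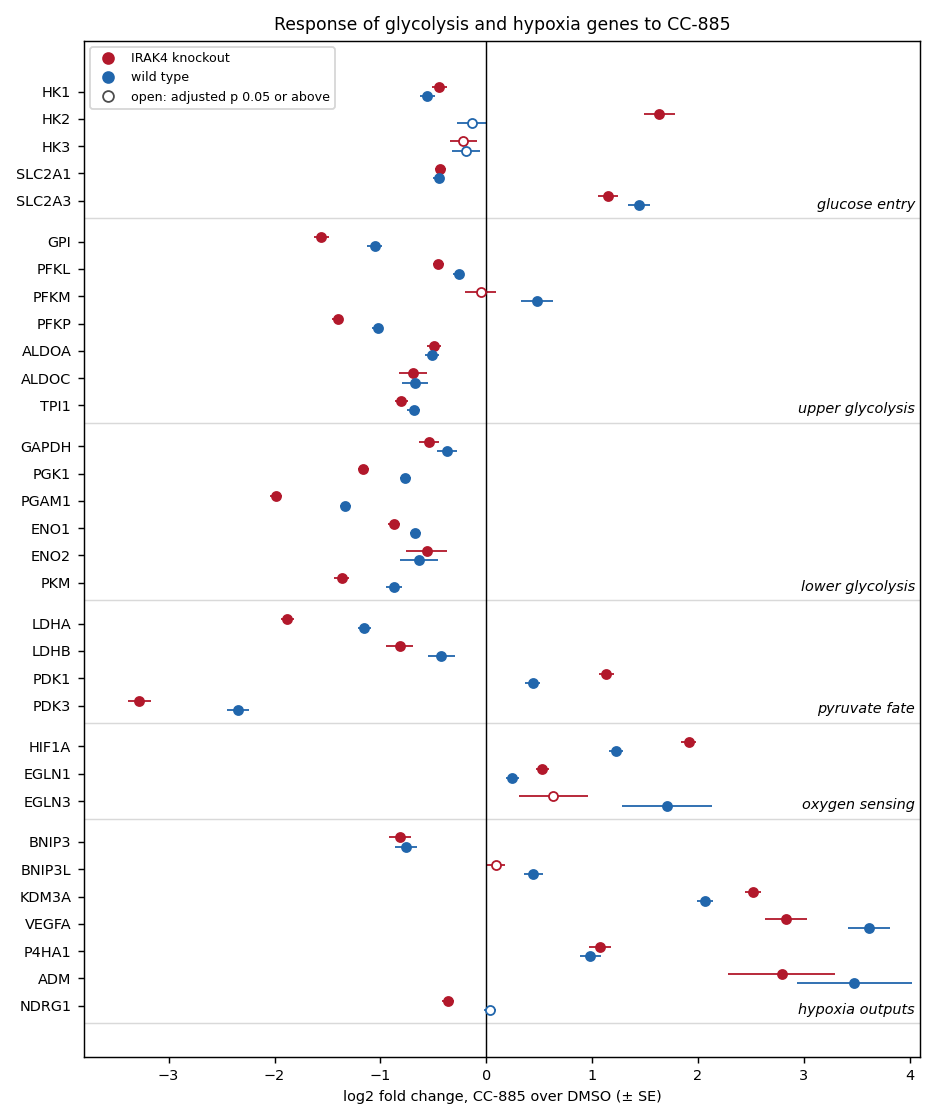
Change of each member under CC-885, as log2 fold change over DMSO (x axis, ± SE from edgeR), in IRAK4 knockout (red, upper of each pair) and wild type (blue, lower), with genes grouped by role down the page. Open points did not pass the test. The lower part of glycolysis lies left of 0 in both genotypes, with PGAM1 at -1.99 in knockout and -1.33 in wild type, while KDM3A, VEGFA and HIF1A lie right of 0.

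Promoters of some members that moved together are shown, picked among those that hold the short core that HIF binds. Windows of 300 bases, 250 before and 50 after the annotated start, were taken from RefSeq (GRCh38.p14) and matched 28 of the 32 members by symbol. NDRG1, SLC2A3, VEGFA and BNIP3L had no entry. Where a gene had several windows, the one at its annotated start was used, or else the first listed. The letters ACGTG and GCGTG were searched on both strands. At least 1 of them occurred in 21 of the 28 windows (75.0%), in 14 of the 18 members that fell in both genotypes (77.8%) and in 5 of 6 matched members that rose in both (83.3%). Of all 35116 windows in the table, 48.4% held one. Those windows include several for some genes and were not matched for base make-up, and the shares were not compared by a test. No match was found in the windows used for HK1, HK3, PFKP, TPI1, PGAM1, PDK1 and EGLN3. The palindrome CACGTG, an E-box that contains ACGTG on each strand, occurred in 4 of the 28 windows and in 7.26% of all windows. It lay in 4 of the 18 members that fell in both genotypes (22.2%) and in 0 of the 6 matched members that rose in both. This split was not tested either. A match here is a run of letters and not a bound site. Lines below give 3 genes that fell and 2 that rose, each 5′ to 3′, with the matches in capitals; a match on the opposite strand reads CACGT or CACGC.
LDHA promoter, chr11:18394313-18394612, plus strand: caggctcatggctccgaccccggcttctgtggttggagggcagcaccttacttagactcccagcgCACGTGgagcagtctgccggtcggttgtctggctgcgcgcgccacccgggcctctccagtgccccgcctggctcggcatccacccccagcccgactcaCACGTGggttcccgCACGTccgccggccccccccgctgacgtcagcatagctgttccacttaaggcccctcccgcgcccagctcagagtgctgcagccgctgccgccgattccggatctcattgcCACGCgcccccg
PGK1 promoter, chrX:78103998-78104297, plus strand: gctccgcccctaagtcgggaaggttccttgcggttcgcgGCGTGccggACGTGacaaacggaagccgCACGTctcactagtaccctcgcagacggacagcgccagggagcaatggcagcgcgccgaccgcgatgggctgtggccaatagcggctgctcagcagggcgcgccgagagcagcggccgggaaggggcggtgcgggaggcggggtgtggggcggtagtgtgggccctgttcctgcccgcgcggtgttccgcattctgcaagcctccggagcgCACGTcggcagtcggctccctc
PDK3 promoter, chrX:24465036-24465335, plus strand: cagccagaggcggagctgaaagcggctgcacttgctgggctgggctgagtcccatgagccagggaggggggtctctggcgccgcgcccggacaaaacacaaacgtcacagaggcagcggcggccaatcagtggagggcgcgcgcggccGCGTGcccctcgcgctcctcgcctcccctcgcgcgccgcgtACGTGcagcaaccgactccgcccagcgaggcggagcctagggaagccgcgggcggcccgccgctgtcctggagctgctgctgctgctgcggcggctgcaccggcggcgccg
HIF1A promoter, chr14:61695263-61695562, plus strand: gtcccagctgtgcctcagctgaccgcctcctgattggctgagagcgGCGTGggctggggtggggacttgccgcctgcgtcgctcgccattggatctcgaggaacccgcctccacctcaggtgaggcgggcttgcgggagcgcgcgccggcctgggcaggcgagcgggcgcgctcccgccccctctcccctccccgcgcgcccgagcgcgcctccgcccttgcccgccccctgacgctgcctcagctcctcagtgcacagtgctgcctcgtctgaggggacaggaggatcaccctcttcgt
KDM3A promoter, chr2:86441121-86441420, plus strand: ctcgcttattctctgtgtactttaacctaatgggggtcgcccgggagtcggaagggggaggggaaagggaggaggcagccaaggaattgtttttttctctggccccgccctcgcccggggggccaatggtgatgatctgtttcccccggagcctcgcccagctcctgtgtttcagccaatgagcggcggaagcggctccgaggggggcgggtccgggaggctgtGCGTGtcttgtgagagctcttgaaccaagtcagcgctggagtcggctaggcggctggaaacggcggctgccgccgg
LDHA had 6 matches, of which its 2 CACGTG runs count on both strands, PGK1 had 4, PDK3 had 2, and HIF1A and KDM3A had 1 each. The core was found in windows of genes that moved in either direction.

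Glucose enters cells through facilitative carriers, of which SLC2A1 (GLUT1) was the main one here. SLC2A1 read 228, 227 and 232 CPM in knockout under CC-885, against 305, 296 and 329 CPM under DMSO. In wild type it read 230, 234 and 222 CPM under CC-885, against 312, 306 and 319 CPM under DMSO. The treatments did not overlap in either genotype and the changes were -0.44 ± 0.05 in knockout and -0.45 ± 0.05 in wild type (log2, ± SE; adjusted p = 1.33e-06 and 1.16e-06), with a difference between the genotypes of 0.02 ± 0.07. SLC2A3 (GLUT3), a carrier of high affinity, went the other way. It read 10.6, 11.3 and 10.1 CPM in knockout under CC-885, against 4.86, 4.90 and 4.67 CPM under DMSO. Wild-type cells had 6.46, 7.16 and 6.64 CPM under CC-885, against 2.63, 2.58 and 2.27 CPM under DMSO. Both rises passed the test, by 1.15 ± 0.10 and 1.44 ± 0.10. Per kb of exon, SLC2A3 made up 4.53 ± 0.285% of the summed level of these 2 carriers in knockout under CC-885 and 1.56 ± 0.121% under DMSO, and 2.92 ± 0.123% in wild type under CC-885 and 0.806 ± 0.0757% under DMSO, so SLC2A1 stayed the larger in all 4 groups.

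Hexokinases trap glucose as glucose 6-phosphate, and the 3 genes measured did not share 1 response. HK2, a form typical of fast-growing and hypoxic cells, read 75.2, 60.8 and 57.9 CPM in knockout under CC-885, against 17.97, 21.4 and 23.2 CPM under DMSO. The wild-type values were 29.4, 30.9 and 38.2 CPM under CC-885, against 29.4, 39.1 and 39.4 CPM under DMSO. The knockout libraries under CC-885 lay above all others, while the treatments overlapped in wild type. The change was 1.63 ± 0.15 in knockout (adjusted p = 1.86e-07) and -0.13 ± 0.14 in wild type (adjusted p = 0.419), and the difference between these responses was 1.76 ± 0.20 (adjusted p = 3.45e-05), the largest of the 16 member differences that passed the test. HK1, the housekeeping hexokinase, fell by 0.44 ± 0.07 in knockout and by 0.56 ± 0.07 in wild type. HK3, a hexokinase of myeloid cells, changed by -0.22 ± 0.12 in knockout (adjusted p = 0.124) and by -0.19 ± 0.13 in wild type (adjusted p = 0.201), neither past the test. Library names begin with 51 or 52, for which the labels give no meaning; a single library of wild type under DMSO begins with 51, and no library of knockout under CC-885 begins with 52. With the prefix as a covariate, HK3 changed by -0.32 in knockout and -0.31 in wild type (adjusted p = 0.000554 and 0.00162), and within prefix 51 by -0.36 and -0.34. In knockout it also passed with library size alone (-0.31, adjusted p = 0.0324), with upper-quartile factors (-0.37, adjusted p = 0.0194) and without replicate 3 under DMSO (-0.35, adjusted p = 0.00938).

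The make-up of the hexokinase pool differed between the groups. Per kb of exon, HK2 held 35.6 ± 2.88% of the summed hexokinase level in knockout under CC-885 and 12.7 ± 2.78% under DMSO, against 25.0 ± 4.48% in wild type under CC-885 and 20.8 ± 3.13% under DMSO (SD, n = 3 libraries each). HK1 held 28.3 ± 2.25% in knockout under CC-885 and 41.9 ± 1.23% under DMSO, against 54.9 ± 3.12% in wild type under CC-885 and 61.6 ± 0.704% under DMSO. HK3 held 45.4 ± 4.01% in knockout under DMSO, within its spread of HK1, and 17.6 ± 2.67% in wild type under DMSO. HK1 lies on chromosome 10, which was low as a whole in knockout, as given below.

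The upper part of the pathway, which ends in triose phosphates, fell in all but 1 of its 7 members in each genotype. GPI, which turns glucose 6-phosphate into fructose 6-phosphate, read 69.9, 72.2 and 71.9 CPM in knockout under CC-885, against 208, 218 and 204 CPM under DMSO. Wild-type libraries gave 159, 156 and 130 CPM under CC-885, against 296, 313 and 316 CPM under DMSO. The 4 groups did not overlap, and the fall of 1.56 ± 0.07 in knockout exceeded that of 1.06 ± 0.07 in wild type, with a difference of -0.50 ± 0.10 (adjusted p = 0.00102). PFKP, the platelet form of phosphofructokinase, the committed step of glycolysis, read 26.0, 26.1 and 26.9 CPM in knockout under CC-885, against 73.0, 68.7 and 67.6 CPM under DMSO. In wild type it read 102, 102 and 101 CPM under CC-885, against 205, 202 and 213 CPM under DMSO. It fell by 1.40 ± 0.05 in knockout and by 1.03 ± 0.05 in wild type. PFKL, the liver form, was the main phosphofructokinase transcript and fell less, by 0.45 ± 0.05 in knockout and 0.26 ± 0.05 in wild type.

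Among the remaining upper enzymes, ALDOA, the main aldolase, fell by 0.49 ± 0.07 in knockout and 0.52 ± 0.07 in wild type, and ALDOC, a minor aldolase at 3.31 to 11.7 CPM, by 0.69 ± 0.13 and 0.67 ± 0.12. TPI1, which interconverts the triose phosphates, fell by 0.80 ± 0.06 in knockout and 0.69 ± 0.06 in wild type. PFKM, the muscle form of phosphofructokinase, was the member that did not fall: it stood at 3.07 ± 0.278 CPM in knockout under CC-885 and 3.19 ± 0.387 CPM under DMSO, and at 2.28 ± 0.256 CPM in CC-885-treated wild type and 1.64 ± 0.195 CPM under DMSO. Its rise of 0.48 ± 0.15 in wild type (adjusted p = 0.0115) was 0.22 within prefix 51 (adjusted p = 0.372), where 1 library stands for wild type under DMSO, and 0.40 without replicate 2 of that group (adjusted p = 0.0551). Per kb, PFKP made up 9.48 ± 0.157% of the phosphofructokinase level in knockout under CC-885, 16.9 ± 0.121% in knockout under DMSO, 25.5 ± 0.542% in CC-885-treated wild type and 36.8 ± 0.331% in wild type under DMSO. PFKP also lies on chromosome 10, low as a whole in knockout.

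In the lower part, where ATP is made, all 6 members fell in both genotypes. PGAM1, the phosphoglycerate mutase, read 29.01, 30.1 and 30.5 CPM in knockout under CC-885, against 117, 126 and 112 CPM under DMSO. Wild-type cells had 114, 116 and 113 CPM under CC-885, against 293, 289 and 279 CPM under DMSO. It fell by 1.99 ± 0.06 in knockout and by 1.33 ± 0.06 in wild type, the deepest falls of the 18 enzymes in either genotype, and the levels of knockout under DMSO overlapped those of wild type under CC-885. PKM, whose enzyme makes pyruvate and the last ATP, read 411, 434 and 453 CPM in knockout under CC-885, against 1207, 1167 and 975 CPM under DMSO. The wild-type values were 412, 428 and 411 CPM under CC-885, against 776, 746 and 767 CPM under DMSO. The genotypes overlapped under CC-885, and PKM fell by 1.37 ± 0.07 in knockout and by 0.87 ± 0.07 in wild type.

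PGK1, the first ATP-making step, fell by 1.16 ± 0.05 in knockout and 0.77 ± 0.05 in wild type. ENO1, the main enolase, fell by 0.87 ± 0.05 in knockout and 0.67 ± 0.05 in wild type, and ENO2, an enolase of neurons that lay near 1 CPM, fell by 0.56 ± 0.19 and 0.63 ± 0.18, the wild-type fall not passing within prefix 51 (-0.60, adjusted p = 0.0734). GAPDH, which oxidises the triose phosphate and is often used as a reference transcript, averaged 1036 ± 51.8 CPM in knockout under CC-885 and 1509 ± 103 CPM under DMSO, and 1251 ± 167 CPM in CC-885-treated wild type and 1617 ± 188 CPM under DMSO. Its fall was 0.54 ± 0.10 in knockout and 0.37 ± 0.10 in wild type. GAPDH, ENO1 and ALDOA had the highest levels per kb of the 32 members in each group. In knockout under CC-885 they stood at 466 ± 23.3, 434 ± 18.1 and 387 ± 20.1 CPM per kb, where GAPDH and ENO1 overlapped at mean ± SD.

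Summed over the 18 enzymes of the path, hexokinases through lactate dehydrogenases, these transcripts took 0.444%, 0.462% and 0.472% of the counts in knockout under CC-885, against 0.915%, 0.896% and 0.851% under DMSO. In wild type they took 0.626%, 0.641% and 0.595% under CC-885, against 1.02%, 1.00% and 0.999% under DMSO. The 4 groups did not overlap. The sum includes HK1, PFKP, PGAM1 and LDHB, which lie in regions that were low as a whole in knockout, as given below. Under DMSO LDHB averaged 342 CPM in knockout against 836 CPM in wild type, PGAM1 118 against 287, PFKP 69.8 against 207 and HK1 54.7 against 83.6. The genotype gap without these 4 genes was not computed. The lack of overlap between genotypes is therefore given only for the sum that includes them, and was not tested without them. Levels are relative to each library, and in bulk RNA fewer cells of a kind and less RNA per cell cannot be told apart.

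**Figure D2:**
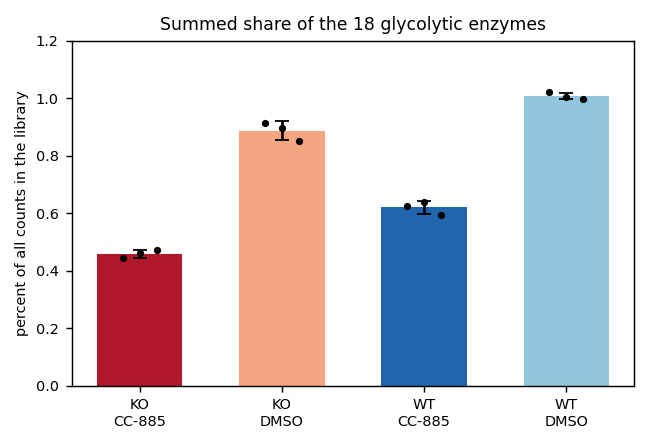
Share of all counts in a library (y axis, percent) taken by the 18 glycolytic enzymes together, for IRAK4 knockout and wild-type THP-1 cells under CC-885 and DMSO. HK1, PFKP, PGAM1 and LDHB, in regions low as a whole in knockout, are among the 18. Bars are means with SD and points are the 3 libraries of a group; knockout under CC-885 is lowest at 0.459 ± 0.0143% and wild type under DMSO highest at 1.01 ± 0.0112%.

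Pyruvate is turned to lactate by lactate dehydrogenase or enters mitochondria through pyruvate dehydrogenase, which the PDK kinases switch off. LDHA, the subunit that favours lactate, read 172, 170 and 168 CPM in knockout under CC-885, against 588, 666 and 626 CPM under DMSO. Wild-type libraries gave 381, 390 and 419 CPM under CC-885, against 859, 902 and 887 CPM under DMSO. The 4 groups did not overlap, and LDHA fell by 1.88 ± 0.06 in knockout and 1.15 ± 0.06 in wild type, a difference of -0.73 ± 0.08 (adjusted p = 1.25e-05). LDHB, the subunit typical of heart, read 190, 197 and 194 CPM in knockout under CC-885, against 314, 351 and 360 CPM under DMSO. In wild type it read 522, 549 and 797 CPM under CC-885, against 865, 794 and 849 CPM under DMSO, with replicate 3 under CC-885 within the DMSO range. LDHB fell by 0.82 ± 0.13 in knockout and by 0.42 ± 0.13 in wild type. The wild-type value was -0.64 without that replicate and -0.70 within prefix 51, which leaves it out too. Per kb, LDHA held 31.9 ± 0.665% of the summed lactate dehydrogenase level in knockout under CC-885 and 49.5 ± 1.19% under DMSO, against 25.8 ± 3.38% in wild type under CC-885 and 36.1 ± 1.57% under DMSO. LDHB lies in a region of chromosome 12 that was low in knockout, as given below.

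The 2 kinase genes moved in opposite directions. PDK3 read 3.19, 3.82 and 4.43 CPM in knockout under CC-885, against 36.5, 36.6 and 37.6 CPM under DMSO. Wild-type cells had 5.67, 5.60 and 4.69 CPM under CC-885, against 26.4, 28.6 and 26.0 CPM under DMSO. Its fall of 3.28 ± 0.11 in knockout and 2.34 ± 0.11 in wild type was the deepest of the 32 members in each genotype. PDK1, a kinase gene that HIF induces, read 36.2, 36.9 and 36.5 CPM in knockout under CC-885, against 15.5, 16.8 and 17.6 CPM under DMSO. The wild-type values were 21.3, 22.1 and 22.9 CPM under CC-885, against 16.5, 16.5 and 15.8 CPM under DMSO. PDK1 rose by 1.13 ± 0.07 in knockout and by 0.44 ± 0.07 in wild type. Per kb, PDK1 held 63.0 ± 3.73% of the summed level of these 2 kinases in knockout under CC-885 and 7.36 ± 0.361% under DMSO, against 42.3 ± 3.41% in wild type under CC-885 and 9.61 ± 0.346% under DMSO.

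**Figure D3:**
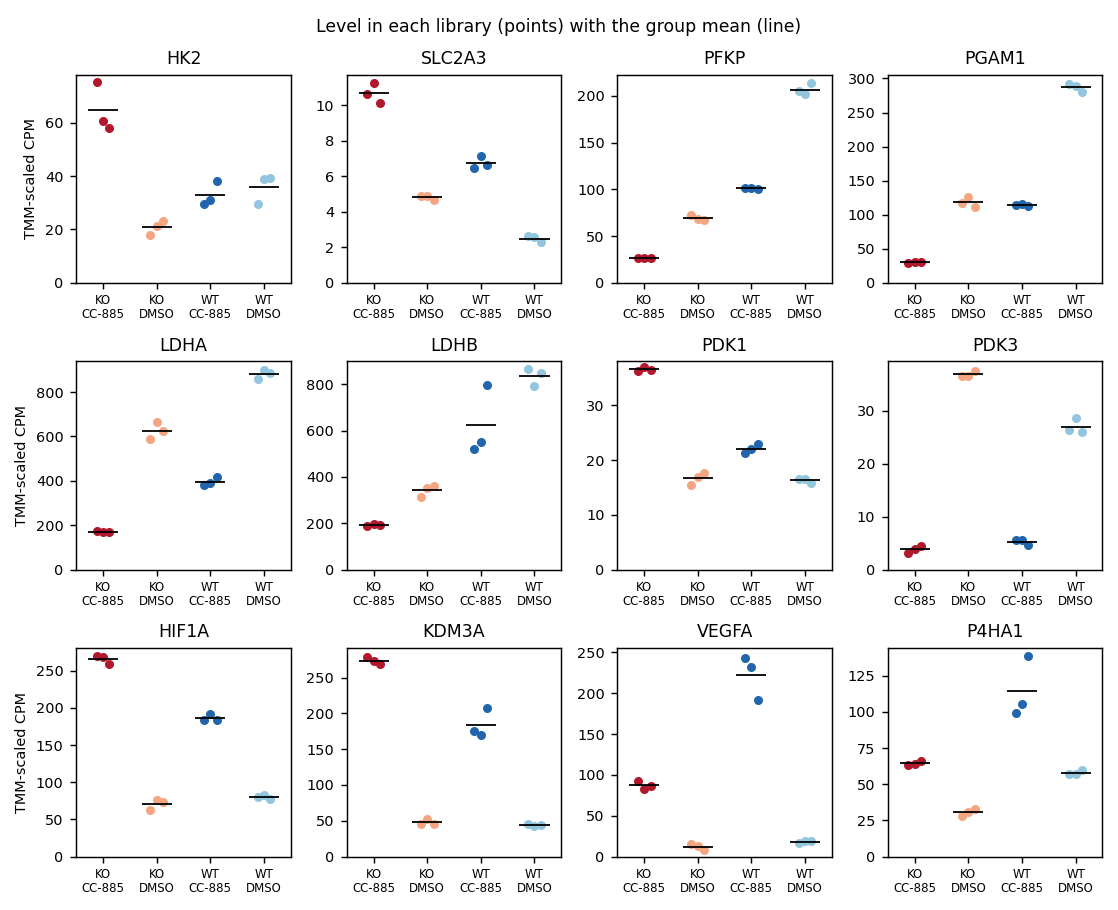
Level of 12 members (y axis, TMM-scaled CPM, a linear axis from 0) in each library, with the group mean as a line; groups are IRAK4 knockout (KO) under CC-885 and DMSO, then wild type (WT) under CC-885 and DMSO. LDHA falls to 168 to 172 CPM in knockout under CC-885, HK2 is highest in that group, and VEGFA is highest in wild type under CC-885 at 192 to 243 CPM.

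Of the oxygen sensors and their target, HIF1A RNA read 270, 268 and 259 CPM in knockout under CC-885, against 63.1, 76.1 and 73.0 CPM under DMSO. Wild-type libraries gave 184, 192 and 183 CPM under CC-885, against 79.7, 82.5 and 77.2 CPM under DMSO. The treatments did not overlap in either genotype, and HIF1A rose by 1.91 ± 0.07 in knockout and 1.22 ± 0.07 in wild type. EGLN1, the main prolyl hydroxylase that marks HIF1A, rose by 0.53 ± 0.06 in knockout, at 299, 293 and 283 CPM under CC-885 against 186, 204 and 217 CPM under DMSO. In wild type it rose by 0.25 ± 0.06, at 172, 185 and 193 CPM under CC-885 against 155, 157 and 152 CPM under DMSO. EGLN3, a hydroxylase that HIF itself induces in many cells, had 24, 20 and 13 counts in knockout under CC-885, against 15, 14 and 9 counts under DMSO, and 11, 15 and 14 counts in wild type under CC-885, against 3, 3 and 6 counts under DMSO. Its change was 0.63 ± 0.33 in knockout (adjusted p = 0.0871) and 1.71 ± 0.43 in wild type (adjusted p = 0.00202), both at under 0.5 CPM. Without replicate 3 of knockout under CC-885, the knockout value was 0.81 (adjusted p = 0.0461). EGLN3 passed the filter on low counts only with its CC-885 libraries counted, so a rise was favoured beforehand.

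The genes that answer HIF split into those that rose and those that did not. KDM3A, a histone demethylase induced by hypoxia, read 279, 273 and 268 CPM in knockout under CC-885, against 45.8, 51.9 and 45.5 CPM under DMSO. In wild type it read 176, 170 and 207 CPM under CC-885, against 45.5, 43.3 and 43.4 CPM under DMSO. The rises were 2.52 ± 0.08 and 2.06 ± 0.08, with no overlap of treatments. VEGFA, the vessel growth factor, read 92.6, 83.2 and 86.3 CPM in knockout under CC-885, against 15.4, 13.5 and 7.86 CPM under DMSO. Wild-type cells had 243, 232 and 192 CPM under CC-885, against 16.7, 18.7 and 19.1 CPM under DMSO. It rose by 2.83 ± 0.20 in knockout and 3.61 ± 0.20 in wild type. P4HA1, a collagen prolyl hydroxylase subunit, rose by 1.08 ± 0.10 in knockout and 0.98 ± 0.10 in wild type.

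ADM, the peptide hormone adrenomedullin, stayed below 1 CPM with 53, 15 and 29 counts in knockout under CC-885, against 7, 1 and 6 counts under DMSO, and 34, 37 and 33 counts in wild type under CC-885, against 2, 2 and 5 counts under DMSO. The treatments did not overlap and both rises passed the test (adjusted p = 9.92e-05 and 2.78e-05). ADM passed the filter on low counts through its CC-885 libraries alone, so a rise without overlap was favoured beforehand. BNIP3, a mitophagy receptor and a common marker of HIF activity, fell by 0.81 ± 0.11 in knockout and 0.76 ± 0.10 in wild type. BNIP3L, its relative, changed by 0.09 ± 0.09 in knockout (adjusted p = 0.336) and rose by 0.44 ± 0.09 in wild type. NDRG1, a stress and hypoxia-induced gene, read 66.9, 65.9 and 68.1 CPM in knockout under CC-885, against 88.4, 87.6 and 82.6 CPM under DMSO, a fall of 0.36 ± 0.06, and in wild type it changed by 0.03 ± 0.06 (adjusted p = 0.598).

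Other genes of these pathways, taken from lists written for this description, are given as counts, to be read against the 38.9% of all genes that rose and 40.0% that fell in knockout and the 35.7% and 36.6% in wild type. Of 15 tested regulators of HIF, 8 rose and 3 fell in knockout under CC-885, and 7 rose and 3 fell in wild type. The coactivator CREBBP averaged 895 ± 21.3 CPM in knockout under CC-885 and 131 ± 10.7 CPM under DMSO, and 583 ± 22.3 CPM in CC-885-treated wild type and 146 ± 10.3 CPM under DMSO. Its relative EP300 rose by 2.37 ± 0.09 in knockout and 1.80 ± 0.08 in wild type, while RBX1, a subunit of the ligase that destroys HIF1A, fell by 1.15 ± 0.10 and 0.80 ± 0.10. Of 32 other tested HIF target genes, 14 rose and 17 fell in knockout and 13 rose and 15 fell in wild type, with medians of -0.31 and -0.17 on the log2 scale. HILPDA, a lipid droplet protein induced by hypoxia, fell by 3.00 ± 0.12 in knockout and 1.82 ± 0.11 in wild type. DDIT4, an mTORC1 inhibitor of many stresses, rose by 2.04 ± 0.09 in knockout and 3.00 ± 0.08 in wild type.

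Of 14 other tested transporters of glucose and lactate, 1 rose and 9 fell in each genotype. SLC2A5, the fructose carrier GLUT5, averaged 14.7 ± 1.56 CPM in knockout under CC-885 and 133 ± 2.55 CPM under DMSO, and 31.8 ± 2.47 CPM in CC-885-treated wild type and 116 ± 3.66 CPM under DMSO. SLC16A3, the lactate exporter MCT4, fell by 1.46 ± 0.07 in knockout and 1.18 ± 0.06 in wild type. Of 11 pentose phosphate genes, which use glucose 6-phosphate to make NADPH and ribose, 1 rose and 10 fell in each genotype, with medians of -1.26 in knockout and -0.74 in wild type. The gene that rose was TKTL1, a transketolase-like gene, by 1.96 ± 0.09 in knockout and 1.85 ± 0.09 in wild type. PGD, which makes NADPH, fell by 1.61 ± 0.06 in knockout.

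Of 7 genes of glucose sensing, 4 rose and 1 fell in each genotype. TXNIP, an arrestin that limits glucose uptake, averaged 3806 ± 23.6 CPM in knockout under CC-885 and 557 ± 57.1 CPM under DMSO, and 2505 ± 101 CPM in CC-885-treated wild type and 369 ± 11.0 CPM under DMSO. Of 11 other mitophagy genes, 6 rose and 4 fell in knockout and 8 rose and 3 fell in wild type, led by the receptor SQSTM1 with rises of 3.77 ± 0.07 and 3.03 ± 0.07. Counts were mixed for 16 genes of pyruvate entry, 5 higher and 6 lower in knockout and 4 higher and 8 lower in wild type, for 20 glycogen genes, 6 higher and 8 lower and 5 higher and 7 lower, and for 15 other glycolytic isozymes and regulators, 5 higher and 8 lower and 4 higher and 7 lower. PDK2, a further kinase of pyruvate dehydrogenase, fell by 1.59 ± 0.09 in knockout and 1.02 ± 0.09 in wild type.

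The responses of the genotypes differed in 16 of the 32 members, 5 with a more positive change in knockout and 11 with a more negative one, against 34.7% of all genes called, 17.9% more positive and 16.8% more negative. The median difference was -0.20 over the members and -0.01 over all genes. The 11 were GPI, PFKP, PGK1, PGAM1, ENO1, PKM, LDHA, PDK3, BNIP3L, VEGFA and NDRG1, and in 8 of them, GPI to PDK3 in that order, a fall in both genotypes was deeper in knockout. The 5 were HK2, PDK1, KDM3A, HIF1A and EGLN1. These are differences of log2 changes and include each genotype's own level under DMSO. The ENO1 difference, -0.20 ± 0.08, had an adjusted p of 0.0496 and did not pass when any 1 of the 12 libraries was left out, within prefix 51 (-0.22) or with a replicate block (-0.21, adjusted p = 0.0740). The VEGFA difference, -0.78 ± 0.27, had an adjusted p of 0.0441, did not pass when any 1 of 10 libraries was left out or with no filter on low counts (-0.87, adjusted p = 0.0707), and was -1.23 within prefix 51. The BNIP3L difference, -0.35 ± 0.12, did not pass when any 1 of 7 libraries was left out, at -0.37 to -0.28, or within prefix 51 (-0.27, adjusted p = 0.102). The EGLN1 difference, 0.28 ± 0.09, did not pass without replicate 1 or 2 of knockout under CC-885 (0.27 and 0.28), without replicate 1 of wild type under CC-885 (0.24), with upper-quartile factors (0.21) or with no filter (0.20, adjusted p = 0.119). PFKL, at -0.19 ± 0.07 (adjusted p = 0.0545), was not among the 16 but passed under 7 of the other scalings, filters, tools and fits, at -0.28 to -0.19. With upper-quartile scaling, all genes called split into 2168 more positive and 3291 more negative, against 2871 and 2691 with TMM, and the members into 4 and 14.

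Knockout cells differed from wild type in many members under each treatment. Under CC-885 9 members were higher in knockout, 16 were lower and 7 did not pass, against 58.6% of all genes called, 27.8% higher and 30.8% lower. Under DMSO 9 were higher, 15 were lower and 8 did not pass, against 49.7% of all genes called, 21.3% higher and 28.4% lower. Upper-quartile scaling moved the median of all genes under DMSO to 0.06, beside -0.06 with TMM, and the calls to 4685 higher and 3036 lower, beside 3415 higher and 4543 lower; the members were then 10 higher and 12 lower.

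Chromosome 10 was low as a whole in knockout cells. Over its 560 tested genes the median difference was -0.91 under CC-885 and -0.99 under DMSO, with 83.8% and 82.9% of them called lower. Of the members, 5 lie on it (GRCh38): HK1 at 69270000 to 69401882 and PGAM1 at 97426191 to 97433444 and PFKP at 3067548 to 3136805 on the plus strand, and BNIP3 at 131967684 to 131981923 and P4HA1 at 73007217 to 73096866 on the minus strand. LDHB lies on chromosome 12 (21635342 to 21657842, minus strand), where the 21 tested genes within 5 Mb had a median of -1.42 under CC-885 and -1.53 under DMSO, while the whole chromosome stood at -0.25 and -0.17. All 6 of these members were lower in knockout under both treatments. Of the other 26, 9 were higher and 10 lower under CC-885, and 9 were higher and 9 lower under DMSO. This split was chosen after the values were seen.

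Set against the median of their neighbours within 5 Mb, the 6 differed. PFKP was lower than its neighbours by 0.97 under CC-885 and 0.54 under DMSO (differences of -0.97 and -0.54), and PGAM1 by 0.99 and 0.24 (-0.99 and -0.24). HK1 stood above its neighbours by 0.41 and 0.32, and BNIP3 by 0.51 and 0.65. P4HA1 lay within 0.04 of them in both treatments. LDHB stood at -0.26 against its neighbours under CC-885 and at 0.24 under DMSO. These values carry no test, and copy number was not analysed here.

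**Figure D4:**
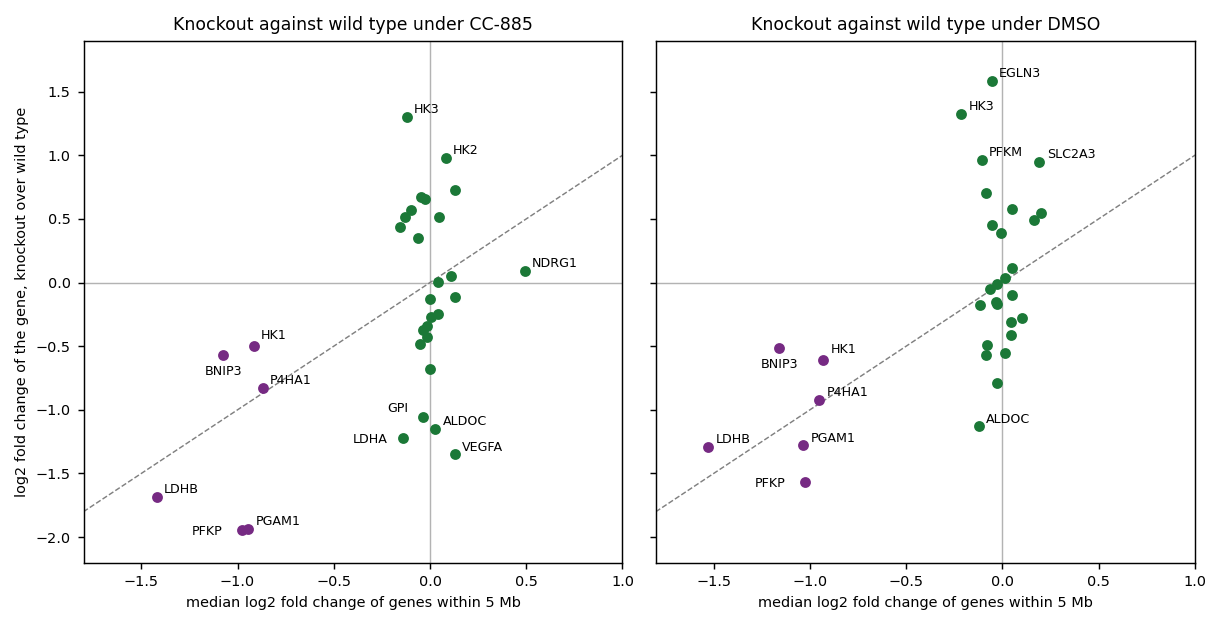
Difference of each member between IRAK4 knockout and wild type (y axis, log2 fold change) against the median of tested genes within 5 Mb on the same chromosome (x axis, log2 fold change), under CC-885 (left) and DMSO (right). Purple points are the 6 members whose neighbours have a median under -0.5, green points the other 26, and the dashed line marks equality. In both panels HK1 and BNIP3 lie above the line, P4HA1 close to it, and PFKP and PGAM1 below it. LDHB lies below it under CC-885 and above it under DMSO.

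Away from those regions, members that were higher in knockout under both treatments were HK3, SLC2A3, PFKM, EGLN1 and BNIP3L. HK3 read 35.6, 31.96 and 33.5 CPM in knockout and 14.7, 14.2 and 12.1 CPM in wild type under CC-885, a difference of 1.30 ± 0.13. Under DMSO it read 45.0, 41.0 and 31.4 CPM in knockout and 18.1, 13.9 and 14.8 CPM in wild type, a difference of 1.33 ± 0.13, with no overlap in either treatment. SLC2A3 was higher by 0.66 ± 0.09 under CC-885 and by 0.95 ± 0.10 under DMSO. Lower under both treatments were GPI, ALDOC, TPI1, PGK1, ENO1, LDHA and VEGFA. LDHA was lower by 1.22 ± 0.06 under CC-885 (a difference of -1.22) and by 0.49 ± 0.06 under DMSO (-0.49), and ALDOC by 1.15 ± 0.13 and 1.13 ± 0.13 (-1.15 and -1.13). The VEGFA difference under DMSO, -0.57 ± 0.20 (adjusted p = 0.0344), was -0.33 without replicate 3 of knockout under DMSO, -0.22 within prefix 51 (adjusted p = 0.0914), and did not pass without replicate 2 or 3 of wild type under DMSO (-0.55 and -0.53). It also did not pass with library size alone, no filter, only the groups compared or upper-quartile factors, at -0.51 to -0.44 (adjusted p = 0.0615 to 0.115). The ENO1 difference under DMSO, -0.17 ± 0.05, did not pass without the same replicates (-0.16 each) or under 5 of the other scalings, filters and fits, at -0.13 within prefix 51, -0.11 with library size alone, no filter or only the groups compared, and -0.04 with upper-quartile factors. With those factors TPI1 and PGK1 under DMSO were -0.19 and -0.16, beside -0.31 and -0.28, and passed. The PFKM difference under CC-885, 0.43 ± 0.15, did not pass without replicate 1 of knockout (0.36) or replicate 2 of wild type (0.35) under CC-885.

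In 3 members the called difference between genotypes had opposite signs under the treatments. HK2 was higher in knockout under CC-885, by 0.98 ± 0.14, and lower under DMSO, at -0.79 ± 0.14. HIF1A was higher under CC-885, by 0.51 ± 0.06, and at -0.17 ± 0.06 under DMSO (adjusted p = 0.0365), a call that was lost under 7 of the other scalings, filters, tools and fits (-0.05 with upper-quartile factors, -0.20 within prefix 51 with adjusted p = 0.0756), without replicate 1 or 2 of wild type under DMSO (-0.17 and -0.15), and was -0.09 without replicate 1 of knockout under DMSO (adjusted p = 0.182). PDK3 was lower in knockout under CC-885, at -0.48 ± 0.11, and higher under DMSO, by 0.45 ± 0.10. SLC2A1 differed by 0.00 ± 0.05 under CC-885 and by -0.01 ± 0.05 under DMSO, neither past the test, and KDM3A and PDK1, with 0.12 ± 0.07 and 0.03 ± 0.07 under DMSO, passed it under CC-885, by 0.57 ± 0.07 and 0.73 ± 0.07; KDM3A passed under DMSO too with upper-quartile factors (0.24) and in a fit of the 2 groups alone (0.17). Under DMSO, PKM was higher in knockout by 0.55 ± 0.07, NDRG1 by 0.49 ± 0.06 and EGLN3 by 1.58 ± 0.43, none of which passed under CC-885 (0.05, 0.09 and 0.51); the EGLN3 call was lost within prefix 51 (2.03, adjusted p = 0.0548). PFKL and GAPDH were lower in knockout under CC-885, at -0.24 ± 0.05 and -0.27 ± 0.10, and did not pass under DMSO (-0.05 and -0.10); the GAPDH call was lost when any 1 of 4 libraries was left out, at -0.28 to -0.21. Under DMSO GAPDH passed with the prefix as a covariate (-0.18, adjusted p = 0.0107) and within prefix 51 (-0.23, adjusted p = 0.0134). ALDOA, ENO2 and ADM did not pass in either treatment, though ALDOA passed under CC-885 without replicate 3 of wild type (-0.19, adjusted p = 0.0117) and within prefix 51 (-0.19, adjusted p = 0.00619). With the prefix as a covariate ALDOA passed under CC-885 and DMSO (-0.16 and -0.18, adjusted p = 0.0295 and 0.0156), and ENO2 under DMSO (-0.47, adjusted p = 0.0433).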

How the data were processed

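The authors deposited raw, unnormalized counts for each gene symbol in 12 libraries. Per the labels' protocols, RNA was polyA-selected, prepared with a TruSeq kit and read as 100 bp pairs. The submitters' processing notes name FastQC 0.11.2, HISAT2 2.0.5, featureCounts 1.5.2 and GRCh38, while the extract protocol names FastQC 0.11.7 and mouse mm10; the symbols are human. The strand setting and the handling of reads with several matches were not given in the sources used here, so members with near-identical processed pseudogenes (GAPDH, PGK1, LDHA, ENO1, TPI1, PKM, PGAM1) or overlapping antisense genes are uncertain in that respect.

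Genes were filtered by edgeR's filterByExpr by group (16010 of 30017 kept). A robust quasi-likelihood model (edgeR 4.0.16, R 4.3.3, TMM factors) with 1 coefficient per group was fitted to all 12 libraries, with 5 contrasts: the CC-885 response of either genotype, the genotype difference within either treatment, and the difference of the responses. P-values were adjusted over all 16010 genes (Benjamini-Hochberg, called under 0.05). Standard errors come from the F statistic. CPM are TMM-scaled, levels are mean ± SD of 3 libraries, and levels between genes are per kb of GENCODE v29 exon. Other genes named follow a rule of at most 2 rises and 2 falls per list among genes called at 5 CPM or more. Alternatives used other scalings, no filter, DESeq2 1.42.0, a replicate block, the library-name prefix and libraries left out. Correlations of deviations between same-numbered replicates were 0.21 and 0.23 for replicates 1 and 3 of knockout under DMSO and wild type under CC-885. All others were between -0.03 and 0.07. Libraries were not paired in the main fit, and the numbers in the library names were not checked for pairing. Pairing or a batch is therefore not excluded. The model script was tested on simulated data. The members and lists were chosen with earlier results of these data known.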

Additional observations from a re-analysis of the deposited data

Results flagged for a closer look

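The response to CC-885 differed between IRAK4 knockout and wild type in 16 members, by the edgeR test of the difference itself (knockout response minus wild-type response, log2). More positive in knockout were HK2 by 1.76, PDK1 by 0.69, HIF1A by 0.69, KDM3A by 0.45 and EGLN1 by 0.28. HK2 was called in knockout and not in wild type, and the other 4 rose in both. More negative in knockout were PDK3 at -0.94, LDHA at -0.73, PGAM1 at -0.65, GPI at -0.50, PKM at -0.50, PGK1 at -0.40, PFKP at -0.38 and ENO1 at -0.20, which fell in both genotypes. VEGFA, which rose in both, stood at -0.78, NDRG1 at -0.40 and BNIP3L at -0.35.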

How the results depend on the processing

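No count of members called moved by 1.5 times under any alternative. Of 160 member results, 122 were called and 111 of these were called in the same direction under every other scaling, filter, tool, covariate and fit tried, 112 when each library was left out in turn, and 110 under all of these. Of the 38 not called, 25 stayed so under all of them. Counting as a reversal a change of sign where either value passed the test or was called, 7 values reversed, all on setting a genotype difference against neighbours within 5 Mb: BNIP3 at 0.51 under CC-885 and 0.65 under DMSO, HK1 at 0.41 and 0.32, P4HA1 at 0.0402 and 0.0287, and LDHB at 0.24 under DMSO. Of the other values set against neighbours, 25 moved by at least the SD between replicates and 32 by less. Among the 25 were NDRG1 under CC-885 (-0.40 beside 0.09) and PKM under DMSO (0.35 beside 0.55). The replicate block gave 9 higher and 19 lower in knockout, 11 and 18 in wild type, 9 and 16 between genotypes under CC-885 and 9 and 15 under DMSO, and of the differences of responses it gave 5 and 10: the ENO1 difference was -0.21 (adjusted p = 0.0740), and it changed no other call. Upper-quartile scaling moved the median of all genes to -0.18 in knockout and -0.10 in wild type, beside -0.03 with TMM, with 9 members higher and 20 lower in knockout. ENO1 between genotypes under DMSO was -0.17 and fell out of the calls there (-0.04), as did GAPDH under CC-885 (-0.23 beside -0.27). Differences of responses that had not passed but did without 1 library were PFKL, PFKM, GAPDH, LDHB and P4HA1, at -0.22, -0.62, -0.28, -0.50 and 0.26; PFKM and LDHB also passed with library size alone (-0.57 and -0.43) and upper-quartile factors (-0.61 and -0.46), P4HA1 within prefix 51 (0.29), and PFKL under 7 such alternatives. The causes were not tested. Within prefix 51, wild type under DMSO is 1 library, assumed to vary like the other groups. Counts of 1 to 53 per library limit EGLN3 and ADM.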
